A study of Mus musculus with 6 samples.

Results

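The genes of the proteasome and of the ubiquitin system were taken as every gene of the expression table whose 1 annotated symbol starts with Psma, Psmb, Psmc, Psmd, Psme, Ube2, Usp and a digit, Cul and a digit, or Fbx. This rule used names and no measured value, but it was chosen with earlier results of these data known. It found 51 genes of 5017, with 723 of the 58919 tested probe sets, each of which covers about 1 exon. There were 3 Psma, 2 Psmb, 3 Psmc, 4 Psmd, 2 Psme, 11 Ube2, 11 Usp, 1 Cul and 14 Fbx genes. The genes measured here lie almost all on chromosomes 1, 10, 11, 12 and 13, so they are a sample of each family and not the whole of it. *Pan2* is among the Usp genes because the array annotation carries its older symbol *Usp52*. *Psmc3ip* shares the Psmc prefix but encodes a cofactor of meiotic recombination and not a proteasome subunit.

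The 6 samples were total RNA of mouse brain, each hybridised to a whole-transcript array. The 3 control arrays had the genotype APPPS1-FVB, and the 3 knockout arrays had the genotype APPPS1-FVBxABCC1, which names *Abcc1*, an ATP-binding cassette transporter, and their titles call them knockout. Both groups carry the APPPS1 transgenes, mutant human APP among them, which a *Thy1* promoter drives in neurons, and FVB is an inbred strain. Age, sex and batch are not given by the labels, and nothing says that the arrays came from separate animals. The p-values therefore reflect the spread between these 6 samples, which may be technical. The labels could not be checked on *Abcc1* itself, which was not analysed here. In RNA of whole tissue, fewer cells of a type and less RNA per cell cannot be told apart.

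Ubiquitin is attached to proteins in a relay: an activating enzyme passes it to a conjugating enzyme of the Ube2 family, and a ligase chooses the protein that receives it. Cullins are scaffolds of ligases, F-box proteins of the Fbx families bring the target to one of these scaffolds, and ubiquitin-specific proteases of the Usp family take ubiquitin off again. Proteins with ubiquitin chains go to the proteasome, whose core particle is built of Psma and Psmb subunits and cuts the protein, whose regulatory particle of Psmc and Psmd subunits unfolds it, and whose alternative caps are the Psme proteins. In neurons this system turns over synaptic proteins, and proteins of amyloid plaques and tau deposits are studied as its load.

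Many proteasome subunit genes are known targets of the transcription factor Nfe2l1 through antioxidant response elements, so the promoters of the genes were searched for this element. RefSeq promoters of GRCm38.p6, from 250 bases before to 50 bases after a gene's start, were matched to 43 of the 51 genes by symbol and gave 49 promoters. The promoters of *Psmb6* and *Psmc5* are shown as examples in which every probe set of a proteasome gene was lower in the knockout. Those of *Usp32* and *Usp34* are shown because all or nearly all of theirs were higher. *Psmb3* with 3 probe sets, *Fbxo36* with 4, *Psme3* and *Usp15* also had every probe set on 1 side, and their promoters are not printed. Of all genes with at least 7 probe sets, 2.8% had all of them lower and 3.38% all higher. Each is printed on the gene's strand, and capitals mark a match to the element TGANNNNGC.
Psmb6, chr11:70525107-70525406, plus strand: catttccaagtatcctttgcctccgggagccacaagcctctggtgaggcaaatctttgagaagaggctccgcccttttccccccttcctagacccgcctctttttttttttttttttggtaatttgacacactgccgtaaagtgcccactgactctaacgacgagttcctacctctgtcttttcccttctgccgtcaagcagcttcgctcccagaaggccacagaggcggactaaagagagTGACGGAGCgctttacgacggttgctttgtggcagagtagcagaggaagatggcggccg
Psmc5, chr11:106255935-106256234, plus strand: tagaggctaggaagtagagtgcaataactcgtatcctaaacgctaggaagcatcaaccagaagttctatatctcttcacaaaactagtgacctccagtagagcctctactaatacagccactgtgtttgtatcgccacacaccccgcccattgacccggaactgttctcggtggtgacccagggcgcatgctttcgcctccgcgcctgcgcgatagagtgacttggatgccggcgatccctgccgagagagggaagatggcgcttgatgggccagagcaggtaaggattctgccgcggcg
Usp32, chr11:85139906-85140205, minus strand: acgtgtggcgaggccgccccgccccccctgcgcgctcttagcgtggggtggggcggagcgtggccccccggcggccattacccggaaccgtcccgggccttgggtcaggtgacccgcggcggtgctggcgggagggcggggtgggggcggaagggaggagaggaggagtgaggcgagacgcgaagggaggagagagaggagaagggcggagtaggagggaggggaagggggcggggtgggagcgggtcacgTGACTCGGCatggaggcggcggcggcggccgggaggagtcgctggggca
Usp34, chr11:23306645-23306944, plus strand: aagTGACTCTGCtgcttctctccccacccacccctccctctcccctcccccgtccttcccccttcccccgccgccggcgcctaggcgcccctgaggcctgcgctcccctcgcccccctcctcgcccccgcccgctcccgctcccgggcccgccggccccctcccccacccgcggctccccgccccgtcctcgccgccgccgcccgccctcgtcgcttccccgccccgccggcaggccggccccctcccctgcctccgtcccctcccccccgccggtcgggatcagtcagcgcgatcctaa
The match in *Psmb6* began 9 bases before the start, that in *Usp34* began 247 bases before it, and that in *Usp32* lay just after the start and overlapped an E box, CACGTG. The *Psmc5* window held no match on either strand.

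The element TGANNNNGC, searched on both strands, was found in 25 of the 49 promoters (51.0%), in 41.3% of all 32851 promoters of the same length and in 41.7% of the 21262 of protein-coding genes. Its stricter form TGACNNNGC, which is contained in the first, was found in 10 of the 49 (20.4%), in 12.4% of all and in 13% of protein-coding promoters. By group, TGANNNNGC was found in 6 of 11 promoters of proteasome core and regulatory subunits, 7 of 8 of Usp genes, 3 of 11 of Ube2 genes and 7 of 15 of Fbx genes. The CCAAT box was found in 34.7% of the members' promoters against 37.4% of all, and CACGTG in 8.16% against 7.15%. The median GC content was 62.7% in the 49 promoters, 52.7% in all promoters and 56.3% in those of protein-coding genes. These counts describe letters in a window and show no binding.

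The value of a gene was the mean log2 signal of its probe sets on an array, and knockout minus control was tested with limma over all 5017 genes with Benjamini-Hochberg adjustment. None of the 51 genes passed an adjusted p of 0.05, and the smallest limma adjusted p among them was 0.215. Over all genes 0 of 5017 passed, a background of 0.0%. Before adjustment, 8 of the 51 were higher and 3 were lower in the knockout at a limma p below 0.05, and in all genes these shares were 7.95% and 6.12%. All 3 knockout values lay above all 3 control values for 11 of the 51 genes and below them for 4, against 11.3% and 8.85% of all genes. The lower counts are near the background, and 8 and 11 of 51 lie above it. The median difference over the 51 genes was 0.03 and over all genes 0.0 on the log2 scale.

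**Figure D1:**
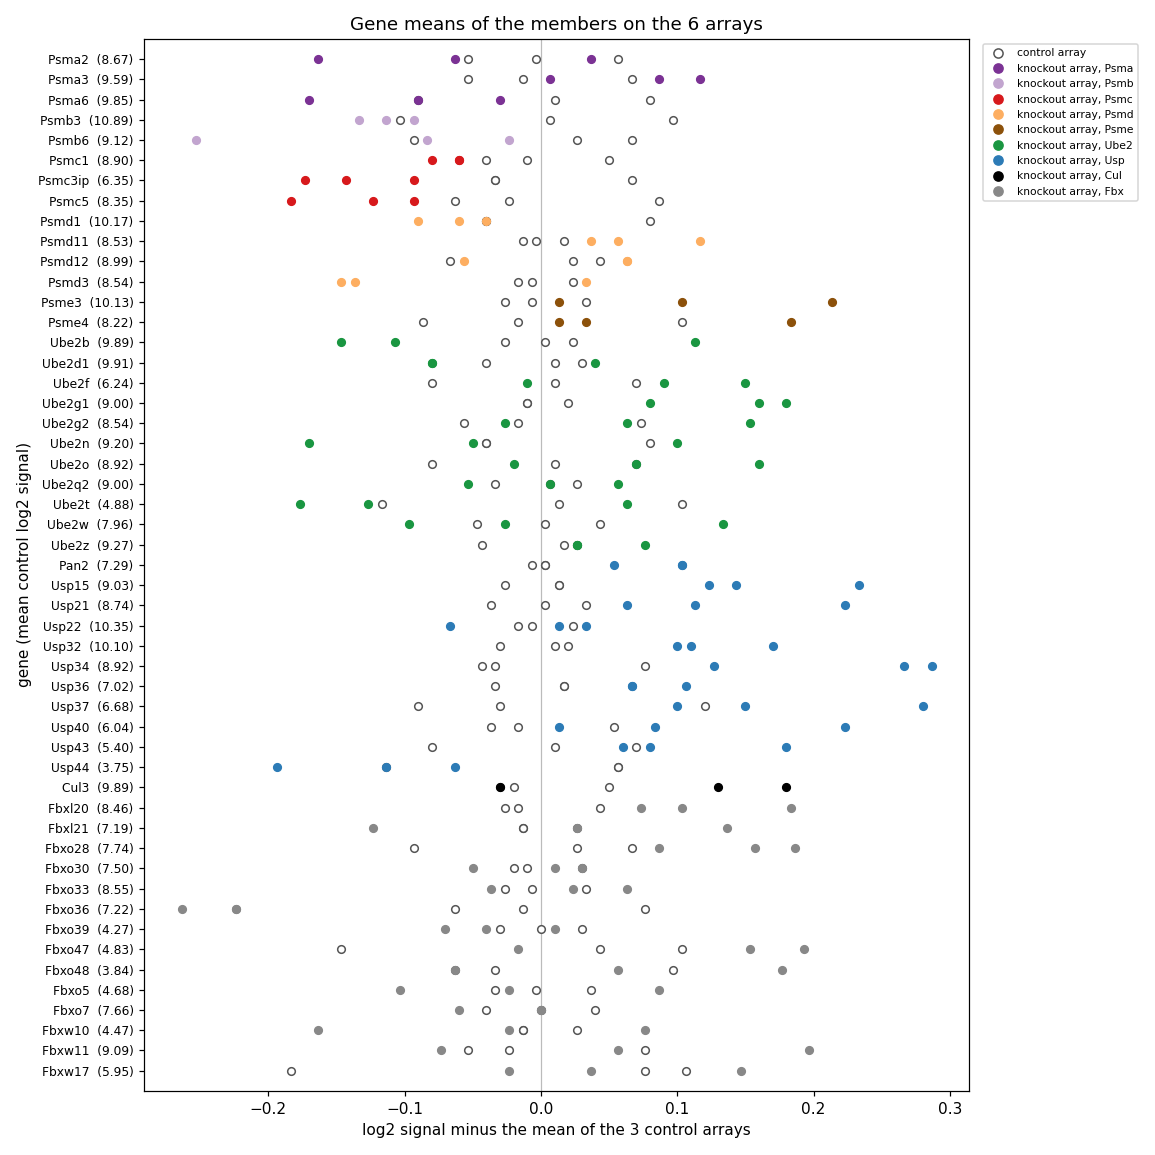
Log2 signal of each of the 51 genes on each array minus the mean of the 3 control arrays; the horizontal axis is this difference, open circles are control arrays, filled circles are knockout arrays coloured by family, and the mean control signal stands in parentheses. The knockout circles of *Usp34*, *Usp15* and *Usp32* lie to the right of all their control circles, and those of *Psmc5*, *Psmc1* and *Fbxo36* to the left.

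Most proteasome subunits were lower and most Usp genes were higher. Of the 11 subunits of the core and regulatory particles, 3 were higher and 8 lower in the knockout, with a median difference of -0.07, while 9 of 11 Usp genes were higher and 2 lower, with a median of 0.11. By single probe sets, 31 of the 119 of the proteasome subunits (26.1%) and 240 of the 297 of the Usp genes (80.8%) were higher, against 51.6% of all probe sets with 1 gene symbol. Probe sets of 1 gene on the same arrays are not separate observations. Many of the 240 came from *Usp34* (78 of 79 higher), *Usp32* (33 of 33) and *Usp15* (22 of 22). Without *Pan2*, 8 of 10 Usp genes were higher, with a median of 0.12 and 219 of 268 probe sets higher. The difference between the families was not tested. The members of each family are taken in turn, from the proteasome to the ligases.

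**Figure D2:**
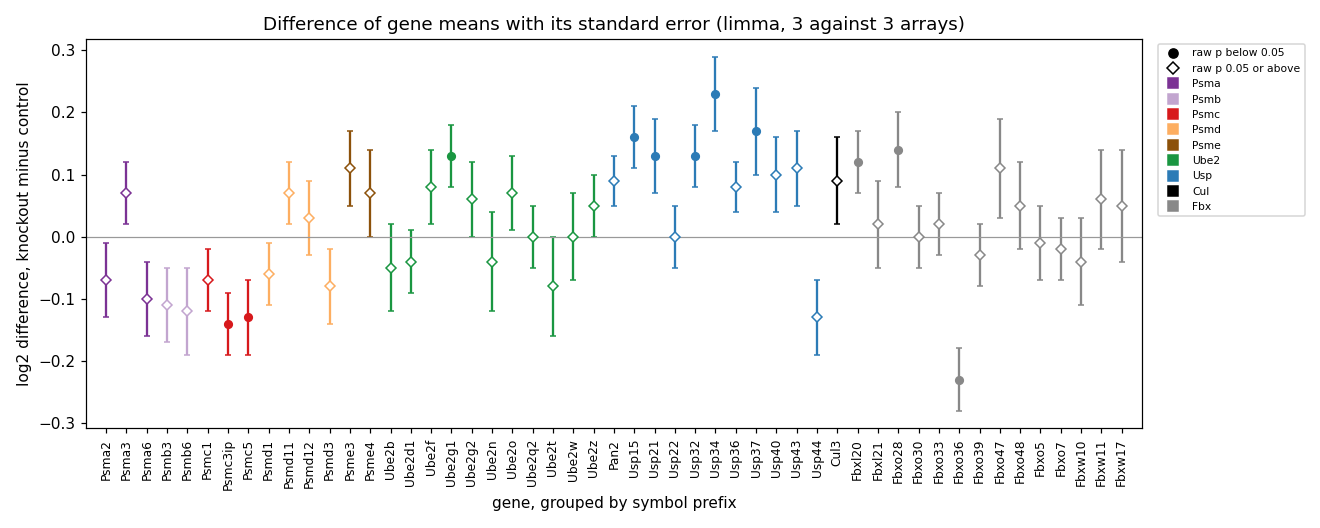
Difference of gene means, knockout minus control on the log2 scale (vertical axis), with its standard error from limma (bars), for the 51 genes in order of family; filled points have a limma p below 0.05 before adjustment. Proteasome subunits lie mostly below 0 and Usp genes mostly above it, and *Usp34* at 0.23 and *Fbxo36* at -0.23 are the ends of the range.

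*Psmc5* encodes an ATPase of the ring at the base of the regulatory particle, which unfolds substrates. Its control values were 8.33, 8.29 and 8.44 and its knockout values were 8.23, 8.17 and 8.26. The groups did not overlap, and all 11 of its probe sets were lower in the knockout. The difference was -0.13 (SE 0.06, n = 3 and 3), with a limma p of 0.0473 before and 0.351 after Benjamini-Hochberg adjustment. *Psmc1*, another ATPase of the ring, had control values of 8.86, 8.89 and 8.95 and knockout values of 8.84, 8.84 and 8.82. These did not overlap either, but the gap was small, and the difference was -0.07 (SE 0.05) with a limma adjusted p of 0.545.

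*Psmb6* encodes a catalytic subunit of the core, and *Psmb3* a core subunit without catalytic activity. *Psmb6* had control values of 9.19, 9.15 and 9.03 and knockout values of 9.04, 9.10 and 8.87, so the groups overlapped although all 7 of its probe sets were lower. Its difference was -0.12 (SE 0.07) with a limma adjusted p of 0.504. *Psmb3* had control values of 10.90, 10.79 and 10.99 and knockout values of 10.80, 10.78 and 10.76, a difference of -0.11 (SE 0.06) with a limma adjusted p of 0.443. Its 3 probe sets were all lower.

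The Psma genes encode the outer rings of the core, through which substrates enter. *Psma6* differed by -0.10 (SE 0.06) and *Psma2* by -0.07 (SE 0.06), with 6 and 7 of 8 probe sets lower. *Psma3* differed by 0.07 (SE 0.05), and its probe sets ranged from -0.05 to 0.60. The probe set at 0.60 read 9.01, 7.96 and 7.71 in controls and 8.83, 8.47 and 9.17 in knockouts, which overlap. When a gene was represented by its brightest probe set alone, all 5 core genes were lower, with *Psma3* at -0.01.

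Among the scaffold subunits of the regulatory particle, *Psmd1* had control values of 10.13, 10.13 and 10.25 and knockout values of 10.11, 10.13 and 10.08. This overlap left a difference of -0.06 (SE 0.05), with 20 of its 25 probe sets lower. *Psmd3* differed by -0.08 (SE 0.06) and *Psmd12* by 0.03 (SE 0.06), with 10 of 12 and 5 of 12 probe sets lower. *Psmd11* was the subunit without overlap in the upward direction, with control values of 8.52, 8.55 and 8.53 and knockout values of 8.57, 8.65 and 8.59. Its difference was 0.07 (SE 0.05), its limma adjusted p was 0.530, and 8 of its 14 probe sets were higher. Its highest probe set, at 0.45, read 7.33, 6.83 and 7.30 in controls and 7.08, 7.22 and 8.50 in knockouts. With the median of its probe sets in place of their mean, the difference of *Psmd11* was -0.03.

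The alternative caps of the proteasome were both higher. *Psme3*, a cap of nuclear proteasomes, had control values of 10.10, 10.16 and 10.12 and knockout values of 10.14, 10.34 and 10.23. Its difference was 0.11 (SE 0.06) with a limma adjusted p of 0.454 and an overlap of 1 array, and all 13 of its probe sets were higher. *Psme4*, a large single-chain cap, differed by 0.07 (SE 0.07) with 31 of 48 probe sets higher, and by -0.08 in its brightest probe set. *Psmc3ip*, the recombination cofactor, had control values of 6.42, 6.32 and 6.32 and knockout values of 6.26, 6.21 and 6.18. It did not overlap and differed by -0.14 (SE 0.05), with a limma p of 0.0301 before adjustment, and by 0.01 in its brightest probe set.

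Among the Usp genes, 5 of the 11 were higher at a limma p below 0.05 before adjustment and 0 were lower, beside 7.95% and 6.12% of all genes, and 6 were higher without overlap, beside 11.3%. The 5 became 2 after quantile normalization and 2 after median centring, beside 5.7% and 5.68% of all genes. They became 1 with the brightest probe set, 3 with the replicate block and 4 with the median of probe sets, beside 3.71%, 7.57% and 5.58%. Array weights gave 3 and removal of the trend on probe set number gave 1, beside 9.13% and 6.72%. A variance trend and robust fit kept 5, beside 8.69%. Without the dimmest 1 in 3 probe sets 7 of 10 Usp genes were higher at such a p, beside 8.77%. With 1 array left out the 5 became 2 without control 3 or knockout 2, beside 5.66% and 6.0% of all genes. They became 3 without control 1, control 2 or knockout 3, beside 5.34%, 8.41% and 7.08%, and stayed 5 without knockout 1, beside 6.66%. *Usp34* encodes a very large protease known for taking ubiquitin off axin in Wnt signalling. Its control values were 8.88, 9.0 and 8.89 and its knockout values were 9.05, 9.21 and 9.19. Every knockout array lay above every control array, and the difference was 0.23 (SE 0.06, 1.17-fold) with a limma p of 0.00719 before and 0.230 after Benjamini-Hochberg adjustment. The difference was 0.14 in its brightest probe set and 0.12 after removal of a trend on probe set number that is described further on. Of its 79 probe sets, 78 were higher and 1 was lower. Ordered by array ID, the first, middle and last parts of the gene, of near equal probe set number, had median differences of 0.25, 0.25 and 0.16, and the difference was not limited to one stretch of the gene.

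**Figure D3:**
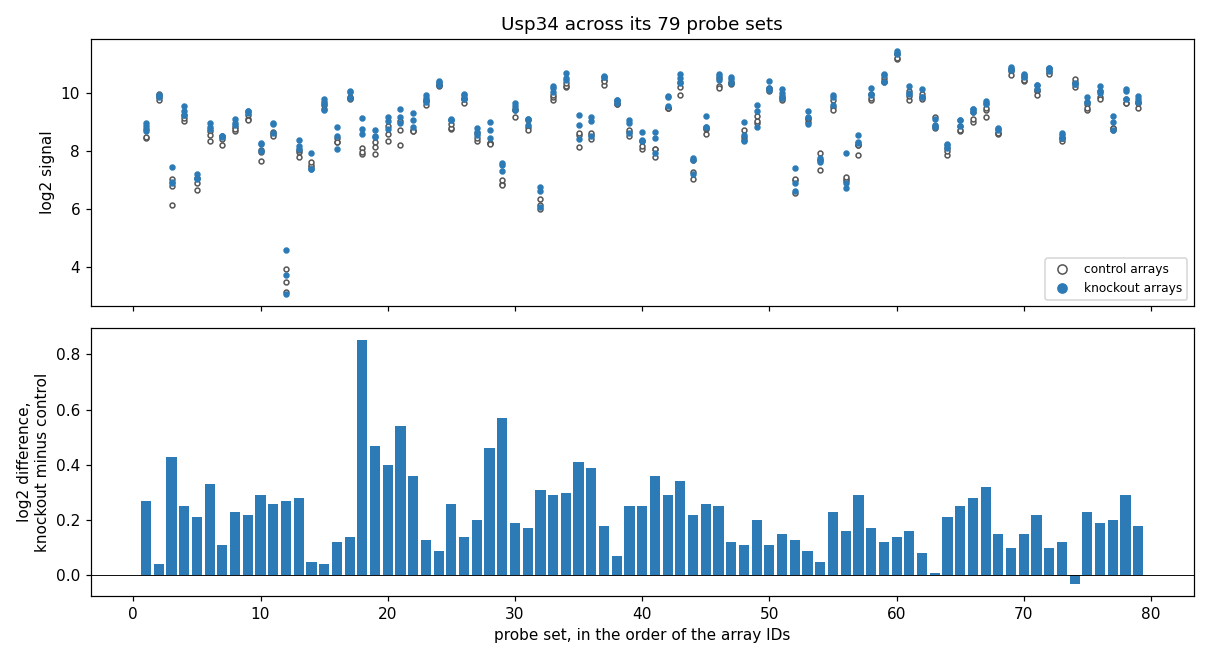
The 79 probe sets of *Usp34* in the order of their array IDs (horizontal axis), with the log2 signal of each array above (open, control; blue, knockout) and the difference of group means below. The bars are above 0 at 78 of 79 probe sets, and the highest is 0.85.

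Probe sets shared between *Usp34* and the neighbouring symbol *Ahsa2* were kept out of the gene mean. Of these 5, 3 differed by 0.16, 0.26 and 0.22 and 2 by -0.38 and -0.21, and their groups overlapped.

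*Usp15* encodes a protease that works on regulators of TGF-beta signalling. Its control values were 9.04, 9.04 and 9.0 and its knockout values were 9.17, 9.26 and 9.15, again without overlap. The difference was 0.16 (SE 0.05) with a limma p of 0.0111 before and 0.248 after adjustment. *Usp32*, a protease bound to membranes of the Golgi and endosomes, had control values of 10.11, 10.12 and 10.07 and knockout values of 10.20, 10.27 and 10.21. These did not overlap, and the difference was 0.13 (SE 0.05) with a limma p of 0.0249 before and 0.293 after adjustment. All 22 probe sets of *Usp15* and all 33 of *Usp32* were higher. Of the 740 genes of the table with at least 20 probe sets, 2.57% had all of them higher, and among the 11 members of that size these 2 genes did. All or nearly all probe sets were higher in 10.4% of the 740 genes and in 4 of the 11 members, *Usp34* and *Fbxl20* among them.

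*Usp37*, a protease of the cell cycle machinery, had control values of 6.80, 6.65 and 6.59 and knockout values of 6.78, 6.96 and 6.83. One control array lay within the knockout range, and the difference was 0.17 (SE 0.07) with a limma adjusted p of 0.346. *Usp21*, known to take ubiquitin off a histone, had control values of 8.77, 8.70 and 8.74 and knockout values of 8.80, 8.96 and 8.85, with a difference of 0.13 (SE 0.06) and a limma adjusted p of 0.349. Its groups did not overlap. One of its probe sets read 9.22, 9.05 and 9.09 in controls and 9.82, 10.07 and 9.75 in knockouts, a difference of 0.76 with a limma p of 0.000445 before and 0.424 after adjustment over all probe sets. Of the 10 genes of the table that lie nearest to *Usp21* on chromosome 1, 8 were higher and 2 lower. Their median was 0.12 and their range -0.09 to 0.42, and the part of this region in the result was not tested.

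Of the other Usp genes, *Pan2*, the catalytic subunit of a complex that shortens poly(A) tails, differed by 0.09 (SE 0.04) and *Usp36*, a nucleolar protease, by 0.08 (SE 0.04), both without overlap. *Usp43* differed by 0.11 (SE 0.06) and *Usp40* by 0.10 (SE 0.06). Single probe sets of *Usp40* ranged from -0.84 to 0.74, none past an adjusted p of 0.05 in limma. The one at -0.84 had means of 3.53 in controls and 2.70 in knockouts, below the array's control features, whose medians were 4.09 to 4.29. *Usp22*, the protease of the SAGA coactivator complex, had control values of 10.35, 10.34 and 10.38 and knockout values of 10.37, 10.39 and 10.29, a difference of 0.00 (SE 0.05). *Usp44* differed by -0.13 (SE 0.06) at a mean signal of 3.68, which is also below those medians.

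**Figure D4:**
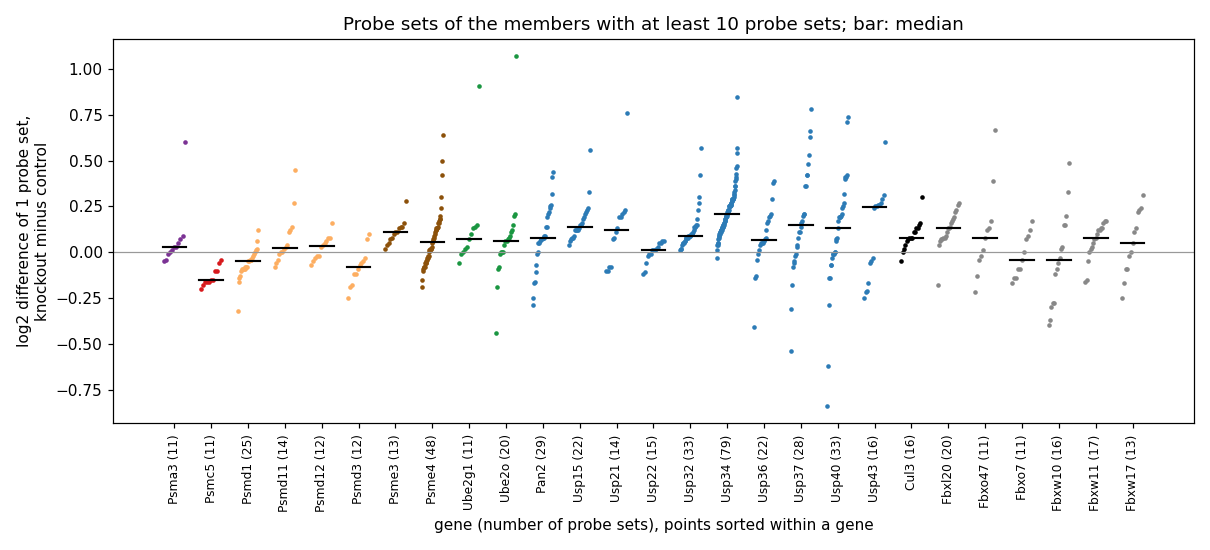
Log2 difference of every probe set (vertical axis, points sorted within a gene) for the members with at least 10 probe sets; the bar is the median of a gene's probe sets and the number of probe sets stands in parentheses. All points of *Usp15*, *Usp32* and *Psme3* lie above 0 and all points of *Psmc5* below it, while *Usp40* and *Usp37* spread widely to both sides.

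Among the 11 conjugating enzymes, 7 were higher and 4 lower, with a median of 0.00. The 7 include *Ube2q2* and *Ube2w*, whose differences round to 0.00. Quantile normalization and median centring each gave 5 higher and 6 lower. Beside 7.95% of all genes, 1 of the 11 (9.09%) was higher at a limma p below 0.05 before adjustment, which is near that share. This was *Ube2g1*, which works with cullin ligases. Its control values were 8.99, 9.02 and 8.99 and its knockout values were 9.16, 9.18 and 9.08, without overlap. The difference was 0.13 (SE 0.05) with a limma p of 0.0244 before and 0.291 after adjustment. One probe set of its 11 stood far from the others, at 5.11, 5.54 and 5.63 in controls and 6.46, 6.24 and 6.31 in knockouts, a difference of 0.91. The brightest probe set of *Ube2g1* differed by 0.00.

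*Ube2f*, which conjugates the ubiquitin-like protein Nedd8 to cullins, differed by 0.08 (SE 0.06). *Ube2o*, an enzyme that acts as conjugating enzyme and ligase at once, differed by 0.07 (SE 0.06), and *Ube2z*, a partner of the activating enzyme Uba6, by 0.05 (SE 0.05) without overlap. *Ube2g2*, of the degradation pathway of the endoplasmic reticulum, differed by 0.06 (SE 0.06). The largest single difference of any member probe set was in *Ube2o*, at 6.99, 7.22 and 6.24 in controls and 6.40, 8.89 and 8.38 in knockouts. Its difference of 1.07 came with an overlap and a limma p of 0.152 before adjustment. *Ube2t*, of the Fanconi anaemia pathway, differed by -0.08 (SE 0.08) and *Ube2d1*, a conjugating enzyme used by many ligases, by -0.04 (SE 0.05). The remaining *Ube2b*, *Ube2n*, *Ube2q2* and *Ube2w* differed by -0.05 to 0.00. *Ube2q2* has 1 probe set and lies on chromosome 9 in RefSeq, apart from nearly all other genes of the table, and whether this probe set reads *Ube2q2* was not tested.

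*Cul3*, the scaffold that binds BTB-domain proteins, was the 1 cullin measured. Its control values were 9.87, 9.94 and 9.86 and its knockout values were 9.86, 10.07 and 10.02, which overlap. The difference was 0.09 (SE 0.07) with a limma adjusted p of 0.554, and 14 of its 16 probe sets were higher.

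Of the 14 F-box genes, 8 were higher and 6 lower, with a median of 0.02. *Fbxo36* had control values of 7.30, 7.16 and 7.21 and knockout values of 6.96, 7.0 and 7.0. The knockout arrays lay below all controls, and the difference was -0.23 (SE 0.05, 0.851-fold) with a limma p of 0.00254 before and 0.215 after Benjamini-Hochberg adjustment. Its 4 probe sets were all lower, from -0.58 to -0.01. With the median of these probe sets in place of their mean, the difference was -0.06 with a limma adjusted p of 0.805.

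*Fbxl20* encodes the F-box protein that marks a scaffold of the presynaptic active zone for degradation. Its control values were 8.51, 8.45 and 8.44 and its knockout values were 8.65, 8.57 and 8.54. These did not overlap, and the difference was 0.12 (SE 0.05) with a limma p of 0.0414 before and 0.346 after adjustment, with 19 of 20 probe sets higher. *Fbxo28* had control values of 7.81, 7.65 and 7.77 and knockout values of 7.90, 7.93 and 7.83, without overlap. Its difference was 0.14 (SE 0.06) with a limma adjusted p of 0.341, but its brightest probe set differed by -0.01.

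*Fbxw11*, a receptor for phosphorylated targets such as beta-catenin, had control values of 9.07, 9.04 and 9.17 and knockout values of 9.02, 9.29 and 9.15, a difference of 0.06 (SE 0.08). *Fbxo47* differed by 0.11 (SE 0.08), and 1 of its probe sets read 3.55, 3.89 and 3.77 in controls and 4.45, 4.39 and 4.39 in knockouts. Along with *Usp44*, the members *Fbxo48*, *Fbxo39*, *Fbxw10*, *Fbxo5*, *Ube2t* and *Fbxo47* had mean signals between 3.86 and 4.88 over all their probe sets. Their brightest probe sets had mean signals of up to 7.30, in *Fbxo47*, so these means mix probe sets near the control features with others above them. *Fbxo48*, *Fbxo39*, *Fbxo5* and *Fbxw10* differed by -0.04 to 0.05, while the brightest probe set of *Fbxw10* differed by -0.40 with a limma adjusted p of 0.430. The remaining F-box genes, *Fbxl21*, *Fbxo30*, *Fbxo33*, *Fbxo7* and *Fbxw17*, differed by -0.02 to 0.05.

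Over the 723 probe sets of the members, 37 were higher and 7 lower at a limma p below 0.05 before adjustment, beside 4.75% and 2.94% of all tested probe sets. None passed after adjustment, where the smallest limma adjusted p was 0.424, while 3 of all tested probe sets did (0.00509%). Of the 37, 31 belonged to Usp genes, which hold 297 of the 723. Many of these 31 were probe sets of *Usp34* alone, so they are not separate results about the family.

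The differences moved with the number of probe sets of a gene. Over the 51 genes, Spearman's rho between this number and the difference was 0.58, and over all 5017 genes it was 0.17, as descriptions across genes of the same 6 arrays. Of the 674 genes with at least 21 probe sets, 68.0% were higher with a median of 0.05, and 18.2% were higher at a limma p below 0.05 before adjustment. The 7 Usp genes of that size were all higher with a median of 0.13, and 4 of them had such a p. *Psmd1*, with 25 probe sets, was lower. Of the genes with 6 to 10 probe sets, 41.0% were higher, and the 4 proteasome subunits of that size were all lower. The part of probe set number in the families' differences was not tested beyond removing its trend over all genes, after which the median of the Usp genes was 0.07. In that fit 1 Usp gene and 3 of the 51 members were higher at a limma p below 0.05 before adjustment, beside 6.72% of all genes, and 3 of the 51 were lower, beside 6.0%.

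**Figure D5:**
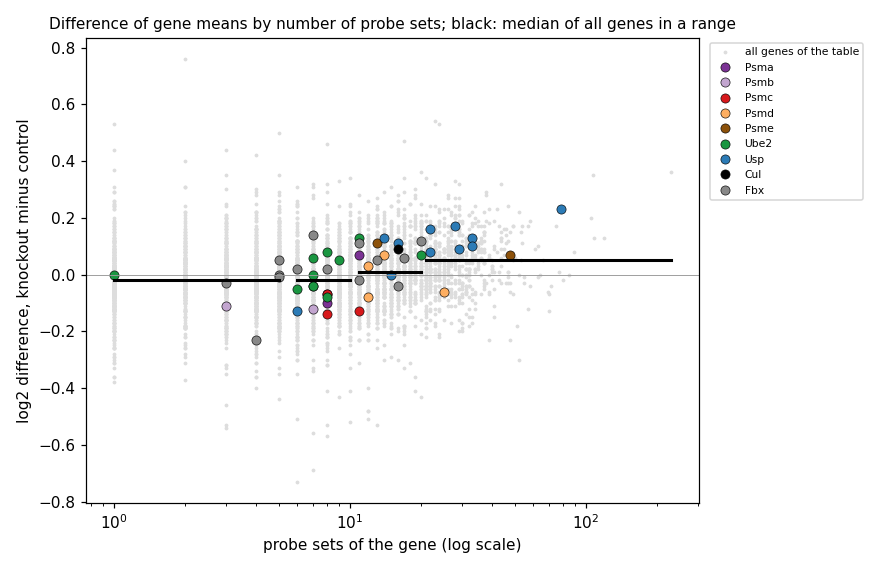
Log2 difference of gene means (vertical axis) against the number of probe sets of a gene (horizontal log axis) for all 5017 genes (grey) and the members coloured by family; black lines are medians of all genes in ranges of probe set number. The medians go from -0.02 for genes with 1 to 5 probe sets to 0.05 for those with at least 21, and *Usp34* with 79 probe sets lies above the line at 0.23.

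The counts rested on single arrays and on the scaling. Without knockout 2, 2 members in place of 8 were higher at a limma p below 0.05 before adjustment and 2 in place of 3 were lower, beside 6.0% and 5.8% of all genes. The higher members numbered 2 without control 3, 5 without control 1 and 4 without control 2, beside 5.66%, 5.34% and 8.41% of all genes. The 3 lower members became 1 without control 1 and 1 without knockout 3, beside 4.13% and 5.26% of all genes. By their brightest probe set, 1 member was higher and 3 were lower at such a p, beside 3.71% and 5.9% of all genes, and by the median of a gene's probe sets 4 were higher and 0 lower, beside 5.58% and 4.46%. Quantile normalization gave 2 higher and 3 lower members, beside 5.7% and 8.33% of all genes, and median centring gave 3 and 3, beside 5.68% and 8.95%. In plain direction, quantile normalization gave 25 of the 51 genes higher and 26 lower. Median centring gave 26 and 25, and the main fit had 30 and 21. The background moved the same way. Of all 5017 genes, 2416 were higher and 2578 lower in the main fit. These became 2142 and 2872 with quantile normalization, and 1951 and 3048 with median centring. The Usp genes stayed at 9 higher and 2 lower under both scalings, and the proteasome subunits at 2 and 9 or 3 and 8.

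Other genes of the pathway were taken from lists written from textbook knowledge, with 202 symbols of which 49 were measured. None passed a limma adjusted p of 0.05, 4 were higher and 1 was lower at a p below 0.05 before adjustment, beside 7.95% and 6.12% of all genes, and their median was 0.04. Of the ubiquitin and activating enzyme genes, 0 of 14 were among the genes measured. Of the ligases of the HECT and RBR classes, 10 of 12 were higher, beside 48.2% of all genes, with a median of 0.07. *Rnf144a* differed by 0.12 (SE 0.05) and *Trip12* by 0.12 (SE 0.05), and their brightest probe sets differed by 0.10 and -0.04. Of the cullin partners, 14 of 20 were higher with a median of 0.02. Among these, *Dcaf8*, a substrate receptor, had control values of 8.57, 8.51 and 8.49 and knockout values of 8.73, 8.93 and 8.74. It did not overlap and differed by 0.28 (SE 0.06) with a limma adjusted p of 0.215, and *Dcaf7*, of the same class, differed by 0.17 (SE 0.05). *Dcaf8* lies on chromosome 1 after *Usp21* in gene order, and the part of its position in this difference was not tested. The higher partner *Klhl3* differed by 0.19 (SE 0.06) without overlap. Lower partners included *Anapc11*, a subunit of the anaphase-promoting complex, at -0.17 without overlap, and its activator *Fzr1* at -0.14. Of the COP9 signalosome, which takes Nedd8 off cullins, *Cops9* differed by -0.16 and *Cops5* by -0.15. These 4 lower genes had limma adjusted p of 0.258 to 0.39. The other signalosome genes measured, *Gps1*, *Cops7b*, *Cops3* and *Cops8*, differed by -0.08 to 0.02.

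In the other lists, *Nfe2l1*, the factor that drives proteasome genes, had control values of 10.06, 10.14 and 10.08 and knockout values of 10.16, 10.18 and 10.18. It did not overlap and differed by 0.08 (SE 0.05), with a limma adjusted p of 0.463, and *Nploc4*, a cofactor of the segregase that hands substrates to the proteasome, differed by 0.07 (SE 0.05). The 7 genes of assembly and shuttling had a median of 0.01. Other deubiquitinases had 4 of 6 higher, with *Atxn3* at 0.12 (SE 0.05) and *Vcpip1* at 0.14 (SE 0.07). Of the 4 genes of ubiquitin-like proteins 2 were higher, with *Sumo3* at 0.10 (SE 0.05) and *Ufc1* at -0.06 (SE 0.06). By their brightest probe sets, *Atxn3* differed by -0.08, *Vcpip1* by 0.20, *Sumo3* by -0.03 and *Ufc1* by 0.02.

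Markers of brain cell types were checked in the same fit, and none passed a limma adjusted p of 0.05. Of 8 astrocyte markers 4 were measured, and they differed by -0.21 for *S100b* and -0.15 for *Gja1*, both without overlap, by -0.48 for *Gfap* and by -0.02 for *Aldoc*. Their summed log2 level was 12.32 to 12.48 in controls and 12.19 to 12.31 in knockouts. Of 9 microglial markers 2 were measured, with *Cd68* at -0.41 and *Ptprc* at -0.17 and a summed level of 7.83 to 8.02 against 7.09 to 7.92. Without knockout 2, *Gfap* differed by -0.24, *Cd68* by -0.15 and *Ptprc* by 0.05. Of the 3 of 11 neuronal markers measured 2 were higher, with a summed level of 12.40 to 12.48 against 12.48 to 12.54. The 1 oligodendrocyte marker of 9, *Cnp*, differed by -0.05, and the 1 endothelial marker of 5, *Pecam1*, by 0.06. Of 5 choroid plexus markers 2 were measured, with *Kcnj13* at 0.21 and *Ace* at -0.03. The 1 red cell marker of 6, *Slc4a1*, differed by -0.36 in its mean and by 0.24 in its brightest probe set. The part of these levels in the differences of the proteasome and ubiquitin genes was not tested.

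Array medians of the tested probe sets ran from 7.04 to 7.09, and pairs of arrays correlated at 0.984 to 0.990. The medians of the control features did not overlap between the groups, at 4.09 to 4.16 in controls and 4.20 to 4.29 in knockouts, and the part of this shift in the members' differences was not tested. The number of arrays limits the precision of every value.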

How the data were processed

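Total RNA of 6 brain samples was measured on 1-colour exon-level arrays, 3 control and 3 knockout, grouped by the labels' genotype. The authors deposited 1 table of log2 values, made with MAS5 of unstated version per the submitters' processing notes, and the scaling between arrays was not given in the sources used here. The values were used without further normalization. Of 65535 probe sets, 6616 with IDs below the first named one were taken as control features, from knowledge of the ID order, and left out. Of the rest, 53644 had 1 gene symbol, 877 several and 4398 none, and only the first were assigned to genes. Of 5032 symbols, 4321 were current in RefSeq, 698 were updated by synonym and 13 kept, and the 5017 resulting genes include 4918 on chromosomes 1, 10, 11, 12 and 13. Of the probe sets with several symbols, 19 name a gene with a member's prefix and entered no gene mean.

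Gene means and probe sets were each fitted with limma 3.58.1 in R 4.3.3 (lmFit, eBayes without trend, two-sided, threshold 0.05 after Benjamini-Hochberg adjustment over all genes or all tested probe sets), after the steps were tested on simulated data. The members and lists were chosen with earlier results of these data known. Named genes were all Psm and Cul genes, the 5 of smallest p in each of Ube2, Usp and Fbx, those holding the 8 member probe sets of smallest p, the members of highest and lowest signal per group, and 2 per pathway list. *Pan2*, *Usp36*, *Fzr1*, *Anapc11*, *Klhl3*, the signalosome genes and the other Ube2 and F-box genes were named after their values were seen. So were the *Ube2o* probe set and the genes chosen for their promoters. Alternatives covered quantile normalization, median centring, the variance model, array weights, a filter on dim probe sets, other summaries of a gene, the replicate block and each array left out. Removal of the trend on probe set number was chosen after seeing the data. Same-numbered arrays correlated at 0.0208, -0.08 and -0.0571 in their deviations from the group means, so replicate numbers were not taken to pair the samples.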

Additional observations from a re-analysis of the deposited data

Results flagged for a closer look

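The median log2 signal of the control features, which entered no comparison, was 0.13 higher in the knockout than in the control arrays, with 4.09, 4.16 and 4.11 in controls and 4.27, 4.29 and 4.20 in knockouts.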

How the results depend on the processing

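No member passed a limma adjusted p of 0.05 under any alternative, where the smallest adjusted p ranged from 0.111 to 0.503. Members higher at a limma p below 0.05 before adjustment numbered 8, beside 7.95% of all genes. They numbered 2 after quantile normalization (5.7% of all genes), 3 after median centring (5.68%) and 5 with array weights (9.13%). There was 1 with the brightest probe set (3.71%), and there were 4 with the median of probe sets (5.58%). Without the dimmest 1 in 3 probe sets 9 of 48 were higher (8.77%). Removal of the trend on probe set number, chosen after seeing the data, left 3 (6.72%). With 1 array left out they numbered 2 to 7, beside 5.34% to 8.41% of all genes. The 3 lower members became 0 with the median of probe sets, beside 4.46%, and 1 to 4 with 1 array left out, beside 4.13% to 7.28%. Members without overlap numbered 11 higher and 4 lower, beside 11.3% and 8.85% of all genes. The 11 became 3 with the brightest probe set and 5 with the median of probe sets, where the 4 became 1. With 1 array left out they numbered 11 to 18 higher and 4 to 11 lower, but fewer arrays separate more easily in any gene. The shares of all genes without overlap under these alternatives are not given here, so these counts are no result about the members.

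The median of the Usp genes, 0.11, was 0.09 after median centring, 0.14 without the dimmest 1 in 3 probe sets, 0.08 with the brightest probe set, 0.13 with the median of probe sets, 0.07 after the trend removal and 0.09 to 0.14 with 1 array left out. The median of the Ube2 genes, 0.00, was 0.05 without the dimmest probe sets, 0.04 with the median of probe sets and -0.02 to 0.05 with 1 array left out. With the brightest probe set, the medians of Psmc, Psme and Cul were -0.06, 0.00 and 0.00. Member probe sets at a limma p below 0.05 before adjustment numbered 37 higher and 7 lower, beside 4.75% and 2.94% of all tested probe sets. They became 67 higher and 12 lower with a variance trend and robust fit, and 3 lower without the dimmest probe sets. With 1 array left out they ranged from 25 to 51 higher and from 7 to 15 lower. The shares of all tested probe sets under these alternatives are not given here, so these counts are no result about the members.

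With the replicate number as a block, 5 members were higher and 3 lower at a limma p below 0.05 before adjustment, beside 7.57% and 5.86% of all genes, and 0 passed after it. The pairing has no basis in the labels. The cause of these changes was not tested. Of the 37 genes named by rule, 10 changed sign with the brightest probe set and 0 to 2 under each other alternative.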
